A study of Mus musculus with 2 samples.

Results

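The levels of 9 genes of the immediate early response were followed in single myeloid cells of the mouse ankle joint: Fos, Fosb, Jun, Junb, Jund and Atf3, which encode subunits of the AP-1 transcription factor, and Egr1, Egr2 and Egr3, which encode zinc finger factors. They were found by symbol among the gene expression features of the deposited tables, and all 9 of 9 names matched, out of 32285 genes in all. The members were chosen by their day 7 over steady-state ratios in these same libraries, so the differences between libraries given here describe the data and test nothing.

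The data are 2 single-cell libraries, 1 per group, of synovial cells from bone marrow chimeras. In every animal CD45.1 marrow of B6 background had been given to a CD45.2 B6 host whose ankle was shielded during irradiation, so CD45.2 marks cells of the host joint and CD45.1 marks cells derived from the donor marrow. The steady-state library came from chimeras without treatment, and the day 7 library from chimeras taken 7 days after 200 µL of clodronate liposomes, given behind the eye. Clodronate liposomes kill phagocytes that take them up. Live cells carrying CD45 and CD11b and lacking CD177, Ly6C, MHC class II, CD64, SiglecF and Ly6G were sorted, and RNA and surface antibody tags were read in the same cells (CITE-seq, 10x 3′ v3.1 chemistry, NextSeq 2000). The number of animals pooled, their age and their sex are not given in the sources used here.

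AP-1 is a dimer of basic leucine zipper proteins from the Fos, Jun and ATF families, and the EGR proteins bind GC-rich DNA through zinc fingers. Many of these genes are switched on within minutes of a stimulus, without new protein synthesis, through mitogen-activated protein kinases acting on serum response factor with its ternary complex partners and on CREB-family factors. In macrophages and monocytes they respond to growth factors, microbial products, adhesion and stress, and tissue digestion and cell sorting can also induce them.

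Filtering left 1631 cells of the steady-state library and 1200 of the day 7 library. Their RNA molecules, counted as UMIs, came to 17073042 and 10826373, or a median of 9559 and 8309 in each cell. The libraries shared 0 cell barcodes. Cells over the limit of 10% mitochondrial UMIs made up 14.2% of the deposited steady-state barcodes and 4.93% of those at day 7, while the median mitochondrial share of the kept cells was 1.91% and 2.07%. RNA for the antigens sorted for was found in most cells, with a Ptprc (CD45) UMI in 84.3% and 87.8% and an Itgam (CD11b) UMI in 81.0% and 81.2% of steady-state and day 7 cells. RNA for antigens sorted against was present too: Ly6c2 (Ly6C) stood at 152 UMIs per 1000000 (CPM) at steady state and 1174 CPM at day 7, H2-Ab1 (class II) at 730 and 158 CPM, and Ly6g at 0 and 9.61 CPM. No difference between the libraries has a replicate check, since each group is 1 library, and all intervals below are 95% intervals that cover counting error only.

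Cells were placed in classes by summed marker RNA per 10000 UMIs of the cell, using no immediate early gene. Each class is a range of a score and not a proven type. The macrophage gate (C1qa, C1qb and C1qc) held 959 steady-state and 174 day 7 cells, the classical monocyte gate (Ly6c2, Ccr2, Vcan and Chil3) 180 and 586, the Ly6C-low monocyte gate (Ace, Treml4, Cd300e and 4 others) 121 and 131, and the dendritic gate (class II genes and Cd209a) 209 and 85. Within 1.5-fold of the threshold, macrophage-gated cells were few (31 just above and 27 just below at steady state, 6 and 6 at day 7), but classical monocyte-gated cells were not (28 above and 113 below, then 33 and 64). The full list of 13 macrophage markers had a median sum of 218 and 166 UMIs per 10000 in macrophage-gated cells of the steady-state and day 7 libraries, against 7.07 and 5.89 in classical monocyte-gated cells. The list of 9 classical monocyte markers had a median sum of 29.3 and 28.2 in macrophage-gated cells and 85.3 and 99.5 in classical monocyte-gated cells. Granulocyte markers had a median of 0 in the macrophage gate in both libraries, and of 0 and 1.07 in the classical gate. Dendritic-gated cells at day 7 carried more classical monocyte RNA (65.9 per 10000) than those at steady state (28.4), and the part of this in their ratios below was not tested.

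RefSeq promoter windows (build GRCm38.p6) were at hand for 7 of the 9 genes, all but Egr1 and Egr3. The 250 bases before the start site of 4 genes are printed 5′ to 3′ on the strand of the gene, with the motifs found in capitals. Fos is shown for its TGACG and TATAAA matches and Egr2 for its CArG box, motifs explained below the sequences. The Fos window holds no CArG box. Jun and Atf3 are shown because they differed most between macrophages and monocytes in the comparisons below. The Fos window is chr12:85473640-85473889 on the plus strand, the Egr2 window (the third of 5 listed start sites) chr10:67537619-67537868 on the plus strand, the Jun window chr4:95052223-95052472 on the minus strand, and the Atf3 window chr1:191183334-191183583 on the minus strand.
Fos: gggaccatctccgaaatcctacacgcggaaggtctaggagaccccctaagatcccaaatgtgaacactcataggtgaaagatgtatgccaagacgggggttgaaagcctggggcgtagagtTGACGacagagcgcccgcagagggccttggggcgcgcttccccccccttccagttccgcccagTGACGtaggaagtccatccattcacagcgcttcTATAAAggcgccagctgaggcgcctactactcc
Egr2: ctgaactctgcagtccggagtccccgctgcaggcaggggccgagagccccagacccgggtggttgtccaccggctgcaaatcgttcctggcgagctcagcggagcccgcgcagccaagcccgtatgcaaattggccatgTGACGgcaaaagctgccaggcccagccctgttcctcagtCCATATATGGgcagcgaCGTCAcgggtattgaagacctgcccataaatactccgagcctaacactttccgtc
Jun: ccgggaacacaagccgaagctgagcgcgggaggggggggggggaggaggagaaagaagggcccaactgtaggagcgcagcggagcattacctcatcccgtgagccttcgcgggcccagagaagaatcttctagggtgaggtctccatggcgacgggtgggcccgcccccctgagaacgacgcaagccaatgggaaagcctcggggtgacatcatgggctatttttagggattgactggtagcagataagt
Atf3: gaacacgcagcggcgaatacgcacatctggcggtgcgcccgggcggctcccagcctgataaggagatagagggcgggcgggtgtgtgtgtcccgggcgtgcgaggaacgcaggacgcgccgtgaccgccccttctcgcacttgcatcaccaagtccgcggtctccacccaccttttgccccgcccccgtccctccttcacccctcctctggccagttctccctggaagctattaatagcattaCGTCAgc
The capitals mark the motif TGACG, which opens a CREB site and reads CGTCA on the opposite strand, the core of the binding site for the TATA-binding protein, TATAAA, and the CArG box bound by serum response factor. In Fos, TGACG starts 129 and 66 bases before the start site and TATAAA 33 bases before it. In Egr2, the CArG box CCATATATGG starts 72 bases before this start site and lies between TGACG matches at 111 and 55 bases. Atf3 has a TGACG match on the opposite strand 7 bases before the start, and in Jun none of the searched letters occur in this window. Fosb and Junb hold 1 TGACG each, at 60 and 106 bases. Among 32851 RefSeq windows of 250 bases, searched on both strands, TGACG was found in 17.8%, TATAAA in 12.4% and a CArG box in 1.47%. The full AP-1 site TGAGTCA (4.46% of windows), the full CREB site TGACGTCA (1.55%) and the EGR site GCGTGGGCG (0.536%) were found in none of the 11 windows of the 7 genes. TGACG was added to the search after the sequences had been seen, and it overlaps the full CREB site by its letters.

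Over all cells every member was lower at day 7, and the mix of cell classes differed between the libraries. Jun, a core AP-1 subunit, stood at 606 CPM at steady state and 185 CPM at day 7, and Egr1 at 447 and 149 CPM. All 9 genes had a lower level at day 7, where 52.7% of all 6442 genes past 20 CPM did, and 7 were lower by 1.5-fold or more, where 20.2% of genes were. The macrophage-gated share of cells was 58.8% at steady state and 14.5% at day 7, and the classical monocyte-gated cells numbered 180 and 586, the latter 48.8%. In such a sum over cells, fewer cells of a type and less RNA per cell cannot be told apart, so the classes are described one by one.

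**Figure D1:**
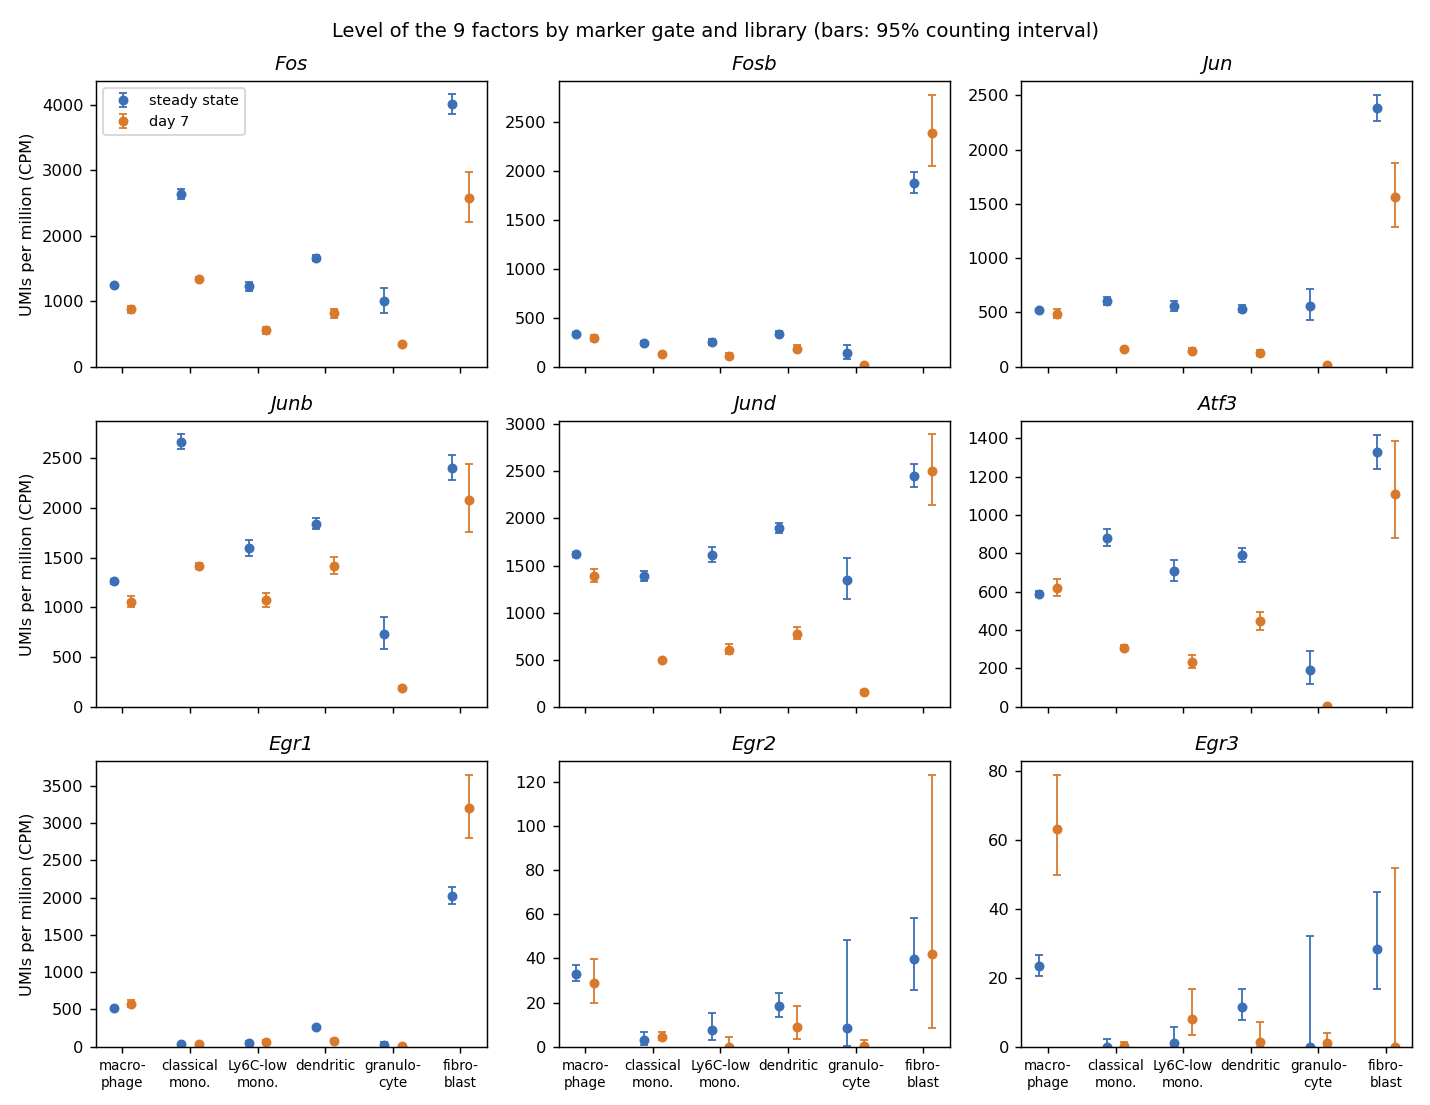
Level of each of the 9 genes (CPM, vertical axes starting at 0 and scaled per gene) in 6 marker gates, with steady state in blue and day 7 in orange; points are UMIs summed over the cells of a gate and bars 95% counting intervals. In the monocyte and dendritic gates the blue point of Jun, Jund and Atf3 lies far above the orange one, while in the macrophage gate the pair lies close together.

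The Fos family supplies the partners that need a Jun protein to bind DNA. Fos itself stood at 1247 CPM in steady-state and 873 CPM in day 7 macrophage-gated cells, at 2628 and 1342 CPM in classical monocyte-gated cells, at 1226 and 554 CPM in Ly6C-low monocyte-gated cells and at 1658 and 812 CPM in dendritic-gated cells. It was lower at day 7 in all 4 gates, by a log2 ratio of -0.52 (-0.61 to -0.43) in macrophages, -0.97 (-1.02 to -0.92) in classical monocytes, -1.15 (-1.30 to -0.99) in Ly6C-low monocytes and -1.03 (-1.15 to -0.91) in dendritic-gated cells. Fos was thus the AP-1 gene that differed most within the macrophage gate. At steady state its level was 2.11-fold lower in macrophages than in classical monocytes, and at day 7 1.54-fold lower.

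Fosb encodes another Fos protein, with a short splice form that 3′ counting does not separate. Its level in macrophage-gated cells was 337 CPM at steady state and 291 CPM at day 7, a log2 ratio of -0.22 (-0.38 to -0.06). In classical monocyte-gated cells it was 242 and 131 CPM (log2 ratio -0.89, -1.06 to -0.71), in Ly6C-low monocyte-gated cells 253 and 110 CPM (-1.20, -1.56 to -0.85), and in dendritic-gated cells 338 and 185 CPM (-0.87, -1.14 to -0.62). Unlike Fos, it was higher in macrophages than in classical monocytes in both libraries, by 1.39-fold at steady state and 2.22-fold at day 7. When classes were taken from clusters in place of gates, the classical monocyte ratio of Fosb was -0.22.

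Jun had the widest contrast between macrophages and monocytes of the AP-1 genes. In macrophage-gated cells its level was 519 CPM (506 to 534) at steady state and 488 CPM (450 to 529) at day 7, and these intervals overlap. In classical monocyte-gated cells it was 608 and 160 CPM, 3.79-fold lower at day 7, and in Ly6C-low monocyte-gated cells 559 and 148 CPM, also 3.79-fold lower. Dendritic-gated cells had 534 and 124 CPM, 4.31-fold lower. At steady state these 4 gates therefore lay within a narrow band, with the interval of each overlapping that of its neighbour in the order classical monocyte, Ly6C-low monocyte, dendritic, macrophage. At day 7 macrophages stood apart, 3.05-fold above classical monocytes and 3.31-fold above Ly6C-low monocytes.

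Junb and Jund, the other Jun proteins, have different textbook behaviour: Junb is induced like Fos, while Jund is present in resting cells. Junb was 1259 CPM at steady state and 1057 CPM at day 7 in macrophage-gated cells (log2 ratio -0.25, -0.34 to -0.17) and 2666 and 1411 CPM in classical monocyte-gated cells (-0.92, -0.97 to -0.87). In Ly6C-low monocyte-gated cells it was 1596 and 1076 CPM (-0.57, -0.69 to -0.45), and in dendritic-gated cells 1839 and 1417 CPM (-0.38, -0.47 to -0.28). Junb had the smallest day 7 difference of the 5 Fos and Jun genes in both Ly6C-low monocyte-gated and dendritic-gated cells. Jund was 1620 and 1394 CPM in macrophage-gated cells (-0.22, -0.29 to -0.14) but 1388 and 493 CPM in classical monocyte-gated cells (-1.49, -1.57 to -1.41). It was 1617 and 606 CPM in Ly6C-low monocyte-gated cells (-1.42, -1.56 to -1.27) and 1899 and 777 CPM in dendritic-gated cells (-1.29, -1.41 to -1.17). The day 7 difference of Jund in monocytes was thus larger than that of Fos, although it is the member least tied to acute induction.

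Atf3, a stress-induced factor that pairs with Jun proteins and represses many inflammatory genes, was level in macrophages and lower in monocytes. Macrophage-gated cells had 587 CPM (573 to 602) at steady state and 619 CPM (576 to 665) at day 7, a log2 ratio of 0.08 (-0.04 to 0.19). Classical monocyte-gated cells had 879 and 308 CPM (-1.51, -1.61 to -1.41), Ly6C-low monocyte-gated cells 707 and 234 CPM (-1.59, -1.83 to -1.36), and dendritic-gated cells 789 and 445 CPM (-0.83, -0.99 to -0.66). At steady state macrophages were therefore 1.497-fold below classical monocytes, and at day 7 they were 2.01-fold above them. Among these 4 gates macrophages had the lowest Atf3 level at steady state and the highest at day 7.

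The EGR genes had another distribution, with higher levels in macrophages than in monocytes, where UMIs were few. Among them, only Egr1 reached a high level in macrophages. Egr1 was 513 CPM (499 to 527) at steady state and 577 CPM (535 to 621) at day 7 in macrophage-gated cells, a log2 ratio of 0.17 (0.05 to 0.28). In classical monocyte-gated cells it was 40.2 and 31.5 CPM, from 70 and 176 UMIs (log2 ratio -0.35, -0.76 to 0.07). The macrophage level was thus 12.8-fold above that of classical monocytes at steady state and 18.3-fold at day 7. At day 7, 1 classical monocyte-gated cell held 73 of the 176 UMIs, so the day 7 values rest in part on that cell. In Ly6C-low monocyte-gated cells Egr1 was 54.8 and 67.9 CPM, from 52 and 58 UMIs, and the log2 ratio of 0.31 (-0.26 to 0.88) rested on few cells. At day 7 only 6 of 131 cells carried an Egr1 UMI, 1 cell held 29 of the 58, and without the 5% of cells highest in the summed members the ratio was -4.46. Dendritic-gated cells had 263 and 76.2 CPM (-1.79, -2.20 to -1.40), but with all gate thresholds halved the ratio was 0.24.

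Egr2, which takes part in myeloid differentiation, had 339 and 35 UMIs in macrophage-gated cells, or 33.1 CPM at steady state and 28.7 CPM at day 7 (log2 ratio -0.20, -0.75 to 0.30). Classical monocyte-gated cells held 5 and 25 UMIs, Ly6C-low monocyte-gated cells 7 and 0, and dendritic-gated cells 44 and 7. These counts give no direction in the classical gate. In the Ly6C-low gate the level at day 7 was 2.10-fold lower when the 0 is set to 3 counts over the group. That value depends on the floor chosen, and 5 of the 7 steady-state UMIs lay in 1 cell.

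Egr3, a target of calcium signalling in lymphocytes, was the single member higher by 1.5-fold or more in macrophages at day 7. Its 240 steady-state UMIs gave 23.4 CPM (20.6 to 26.6) and its 77 day 7 UMIs gave 63.2 CPM (49.9 to 79.0), a log2 ratio of 1.43 (1.04 to 1.81) or 2.70-fold higher. A UMI was present in 12.4% of steady-state and 16.7% of day 7 macrophage-gated cells, and 1 day 7 cell held 14 of the 77 UMIs. The share of cells with a UMI differed less than the level. The other marker gates held 28 UMIs or fewer in either library, and cells past no gate (92 and 64) held 24 and 48.

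Counted by gate, 6 of 9 members were lower at day 7 in macrophages (39.6% of all genes past 20 CPM), 0 of them by 1.5-fold or more (5.49%), and 1 was higher by that much (10.8%). In classical monocytes 7 of the 8 members with a ratio were lower (37.8%), 6 of them by 1.5-fold or more (5.78%). In Ly6C-low monocytes 7 of 9 were lower (44.5%), 6 by 1.5-fold or more (10.8%), and in dendritic-gated cells 9 of 9 (43.3%), 8 by 1.5-fold or more (14.5%). Of the 9 members, 9 passed 20 CPM in the macrophage gate and 7 in each of the other 3 gates, where Egr2 and Egr3 did not. They are counted above all the same: the 6 of the Ly6C-low gate include Egr2 at its floor, and the 8 of the dendritic gate include both. The median log2 ratio of the members was -0.20 in macrophages against 0.12 over all genes, -0.94 against 0.14 in classical monocytes, -1.15 against 0.07 in Ly6C-low monocytes and -1.03 against 0.10 in dendritic-gated cells. Centring the ratios on those all-gene medians changed the split of all genes past 1.5-fold from 5.49% lower and 10.8% higher to 9.22% and 5.78% in macrophages, and from 5.78% and 14.4% to 9.44% and 8.53% in classical monocytes. With centring, 1 member (Fos, at -0.63) was lower by 1.5-fold or more in macrophages, Atf3 lay just below 0, and Egr1 and Egr3 remained above 0. The interval of Egr1 held the macrophage median of all genes, so after centring it spans 0, while that of Egr3 lay above the median. These contrasts took part in the choice of the genes, so the shares are printed as background only.

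**Figure D2:**
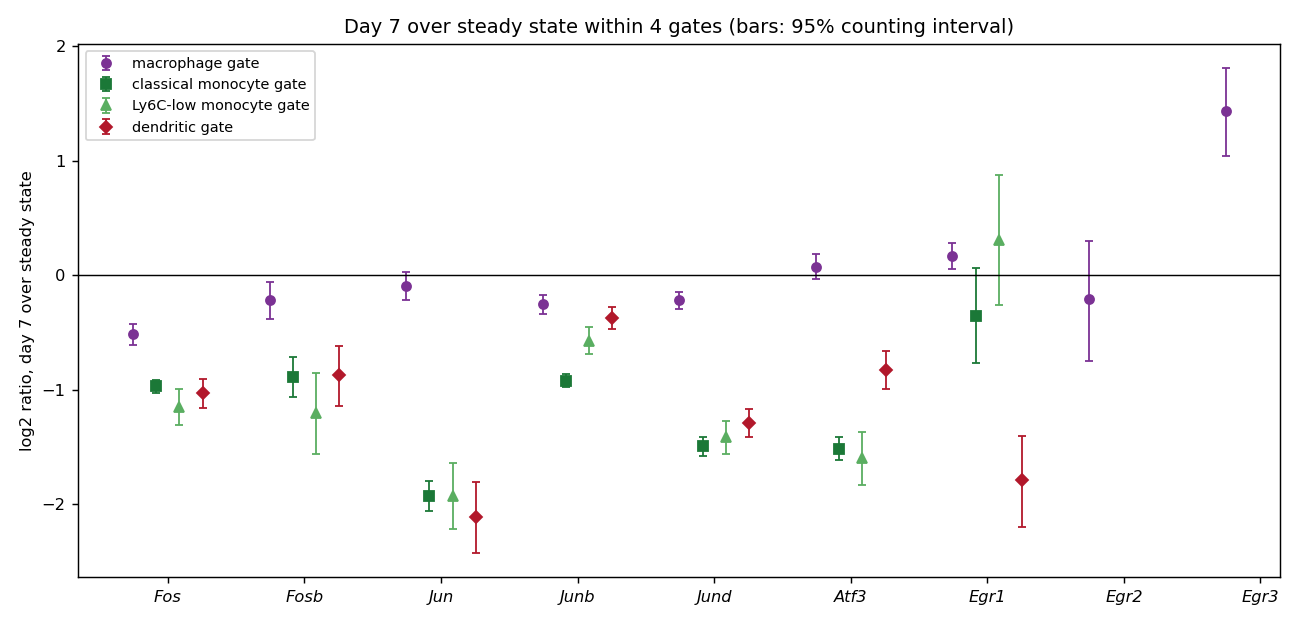
Log2 ratio of day 7 over steady state (vertical axis) for each gene within the macrophage, classical monocyte, Ly6C-low monocyte and dendritic gates, for genes that reached 20 CPM in a library; bars are 95% counting intervals and the line marks no difference. The macrophage points lie between -0.52 and 0.17 except Egr3 at 1.43, and the monocyte points of the Fos and Jun genes and of Atf3 lie between -0.57 and -1.92.

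The direction was therefore not simply opposite in macrophages and monocytes. The 5 Fos and Jun genes were lower or level in both, by far less in macrophages, and a higher day 7 level with an interval above 0 was seen in macrophages for Egr1 and Egr3 alone. The difference of the log2 ratios, macrophage minus classical monocyte, was 1.83 (1.66 to 2.01) for Jun, 1.59 (1.44 to 1.74) for Atf3, 1.28 (1.17 to 1.38) for Jund, 0.67 for both Fosb (0.44 to 0.90) and Junb (0.57 to 0.76), 0.52 (0.11 to 0.94) for Egr1 and 0.45 (0.35 to 0.56) for Fos. It was above 0 with its interval for 7 of the 8 members with both ratios, where 9.87% of 5199 genes had such a difference. Egr2 had the other sign (-0.84, -2.32 to 0.63) on very few monocyte UMIs. For Egr1, 1 cell held 73 of the 176 UMIs of day 7 classical monocytes. Against Ly6C-low monocytes 6 of 8 differences lay above 0 with their interval (12.3% of genes), and against dendritic-gated cells 7 of 9 (12%). The day 7 library enters each of these with 1 sample, and the intervals do not cover differences between animals or preparations.

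Gate membership bore on the monocyte values. Of 180 steady-state and 586 day 7 classical monocyte-gated cells, 71 and 289 fell in clusters named for that class when cells were clustered without the 9 genes, while 729 of 959 and 130 of 174 macrophage-gated cells fell in macrophage clusters. The other classical monocyte-gated cells fell in dendritic clusters (47 at steady state and 37 at day 7), Ly6C-low monocyte clusters (43 and 89) and clusters named for none of the gates (19 and 171). The make-up of this gate thus differed between the libraries. With classes from the clusters the classical monocyte ratios were smaller for Atf3 (-0.96), Fos (-0.65) and Jund (-1.20), and Jun was -1.72. Egr1 moved the other way, to -1.30 from -0.35, and Egr2 to -0.38 from 0.64. The macrophage ratios under the same classes were 0.23 for Atf3, 0.08 for Jun and -0.28 for Fos.

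Cells outside these 4 gates set the ends of the scale. The fibroblast gate (collagen genes, Prg4, Dcn and Lum), with 64 steady-state and 15 day 7 cells, had the highest Fos (4007 and 2572 CPM), Jun (2382 and 1560 CPM) and Egr1 (2025 and 3204 CPM) of all gates in both libraries. The day 7 granulocyte gate (145 cells) was the lowest, with 13.4 CPM of Jun, 3.76 CPM of Egr1 and 1.07 CPM of Atf3, and these cells, with a median depth of 12513 UMIs, serve as the reference for free RNA in the droplets of that library. At steady state the gate held 6 cells, with Jun at 557 CPM (429 to 711), Fos at 1001 CPM, Jund at 1349 CPM, Atf3 at 191 CPM and Egr1 at 17.4 CPM (2 UMIs). Its Jun was thus as high as in the other steady-state gates, and no low reference for free RNA was at hand for that library. Jun, Egr1 and Atf3 lay above their level in every other gate of the day 7 library. For Egr1 in classical monocytes the margin was smaller by share of cells than by level. An Egr1 UMI was present in 8.70% of day 7 classical monocyte-gated cells (median depth 9099 UMIs) and 4.14% of granulocyte-gated cells. The levels were 31.5 and 3.76 CPM, with 73 of the 176 classical monocyte UMIs in 1 cell. For Egr3 the shares were 0.341% and 1.38%, so Egr3 in classical monocytes was at the background.

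The chimera allowed host and donor cells to be read apart inside the macrophage gate. At steady state 740 macrophage-gated cells were of host and 154 of donor origin, and at day 7 112 and 20, with the rest unassigned. Host cells are described first because they are the larger group in both libraries. Egr1 was 512 CPM (497 to 528) in steady-state and 652 CPM (600 to 707) in day 7 host macrophages, a log2 ratio of 0.35 (0.22 to 0.47). Atf3 was 566 CPM (550 to 583) and 653 CPM (601 to 708), a log2 ratio of 0.21 (0.08 to 0.33), and Egr3 27.7 and 77.5 CPM (1.49, 1.08 to 1.88). These 3 genes were thus higher in host macrophages at day 7, while Fos (-0.42, -0.53 to -0.32), Jund (-0.17, -0.25 to -0.08), Fosb (-0.20, -0.38 to -0.02) and Junb (-0.10, -0.20 to -0.01) were lower. Jun (0.07, -0.07 to 0.21) and Egr2 (0.11, -0.50 to 0.67) had intervals that span 0. Of all genes past 20 CPM in host macrophages, 41.2% were lower and 58.8% higher. Their median log2 ratio was 0.10, so Junb and Jund lay below that median and Jun close to it. The interval of Atf3 held that median, while those of Egr1 and Egr3 lay above it.

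Donor macrophages had fewer cells and another set of differences. In the 20 donor cells of day 7, Fos was 748 CPM against 1560 CPM in the 154 donor cells of steady state (log2 ratio -1.06, -1.33 to -0.80), Jun 348 against 512 CPM (-0.56, -0.97 to -0.17) and Junb 1055 against 1551 CPM (-0.56, -0.78 to -0.34). Jund was lower as well (-0.40, -0.59 to -0.20). Fosb had a ratio above 0 in donor cells (0.27) where it was below 0 in host cells, with an interval of -0.12 to 0.64. Egr1 (-0.14, -0.49 to 0.20) and Atf3 (-0.25, -0.58 to 0.06) had intervals that span 0. Within steady state, host over donor was -0.39 (-0.45 to -0.32) for Fos and -0.38 (-0.44 to -0.31) for Junb, -0.18 for Jund, -0.19 for Atf3, near 0 for Jun, Egr1 and Fosb, and 1.78 (0.95 to 2.75) for Egr3. Egr3 was thus the member most tied to host origin, at 27.7 CPM in host and 8.06 CPM (12 UMIs) in donor macrophages. At day 7 its host over donor ratio was 2.72 (0.81 to 5.79), on 2 donor UMIs. Classical monocytes were nearly all of donor origin, and in donor cells alone their log2 ratios were -0.97 for Fos, -0.81 for Fosb, -1.92 for Jun, -0.89 for Junb and -1.46 for both Jund and Atf3.

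Expression was uneven between cells of one gate, and the cell with the highest sum at steady state was a macrophage-gated cell. The sum of the 9 genes, in UMIs per 10000 of the cell, had a median of 57.8 in steady-state macrophage-gated cells, with a 10th percentile of 12.8, a 90th percentile of 139 and the highest cell at 754. At day 7 the median was 46.9, with percentiles of 7.40 and 114. In classical monocyte-gated cells the whole distribution lay lower at day 7: the 10th percentile, median and 90th percentile were 35.2, 73.7 and 151 at steady state and 9.50, 30.8 and 76.7 at day 7. The medians were 49.5 and 23.5 in Ly6C-low monocyte-gated cells and 64.7 and 31.9 in dendritic-gated cells.

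**Figure D3:**
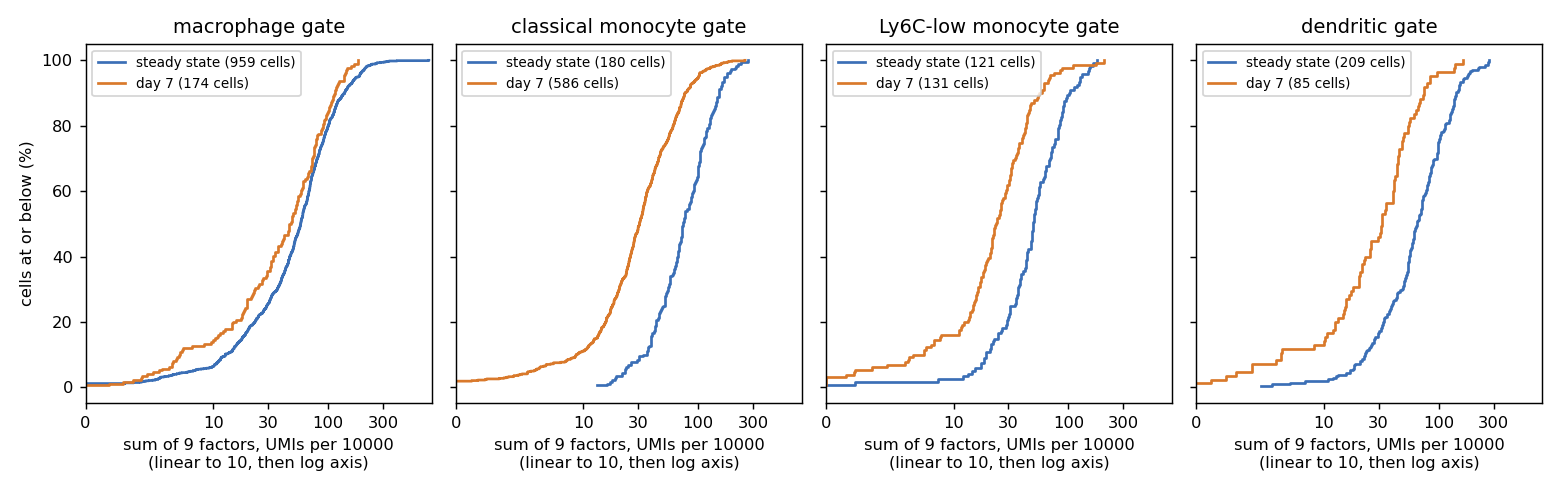
Cumulative share of cells (vertical axis, %) at or below a given sum of the 9 genes in UMIs per 10000 (horizontal axis, linear to 10 and logarithmic above), for steady state in blue and day 7 in orange in 4 gates. In the monocyte and dendritic gates the orange curve lies left of the blue one over most of its length, with medians of 30.8 and 73.7 in classical monocytes, while the macrophage curves lie close together with medians of 46.9 and 57.8. In Ly6C-low monocytes the highest cell is at 202 at day 7 and 175 at steady state.

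Cells with many of the genes at once made up a smaller share of monocytes at day 7. After each cell was thinned to 2000 UMIs, 5 or more of the 9 genes were detected in 39.1% (31.8 to 46.8) of 174 steady-state and 11.1% (8.49 to 14.1) of 515 day 7 classical monocyte-gated cells. In Ly6C-low monocyte-gated cells the shares were 34.0% (25.04 to 43.8) and 6.96% (3.05 to 13.2), and in macrophage-gated cells 48.0% (44.7 to 51.4) and 42.8% (34.6 to 51.2). The macrophage intervals overlap and the monocyte intervals do not. In granulocyte-gated cells of day 7 it was 0 of 106. For single genes the unthinned share of cells with a Jun UMI was 72.2% and 38.4% in classical monocytes and 77.0% and 62.6% in macrophages. The thinned shares were 39.1% and 18.8%, and 49.1% and 47.6%, so the gap in macrophages was smaller at equal depth. Macrophage-gated cells had a median of 9956 UMIs at steady state and 6756 at day 7. Among the 7 members above 200 CPM in macrophage-gated cells, Jund was the most even between cells: the top 10% of cells held 25.5% of its UMIs at steady state and 29.9% at day 7. The same share at steady state was 46.7% for Atf3, 46.5% for Egr1 and 46.1% for Fosb, which lay close together. At day 7 it was highest for Fosb, at 58.5%, with Egr1 at 48.8% and Atf3 at 47.3%. These shares are of unthinned UMIs, so they also carry differences in depth and level. In thinned day 7 counts the variance over the mean was lowest for Jund (2.06), 2.44 for Fosb and highest for Egr1 (3.91) among these 7 members.

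The genes varied together only in part. Over thinned log counts of 885 steady-state macrophage-gated cells, the 36 pairs of members had a median Pearson correlation of 0.25, with Junb and Egr1 the highest at 0.44, and over 145 day 7 cells the median was 0.24 and the same pair again the highest at 0.44. For classical monocyte-gated cells the medians were 0.16 and 0.16. These are descriptions over cells of 1 library each, at equal depth, and counts per gene are low.

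The monocyte difference was present within the bins of mitochondrial share under 4%. In classical monocyte-gated cells with 0 to 2% mitochondrial UMIs (149 steady-state and 267 day 7 cells) the summed members had a log2 ratio of -1.03 (-1.06 to -0.99), and in those with 2 to 4% (28 and 301 cells) -1.18 (-1.25 to -1.11). In Ly6C-low monocyte-gated cells the values were -0.95 (-1.07 to -0.84) and -1.11 (-1.22 to -0.995). The macrophage difference was -0.21 (-0.27 to -0.15) and -0.06 (-0.12 to -0.01) in these bins, and larger in cells with 6 to 10% (-1.25, -1.52 to -0.999), a bin of 53 and 14 cells. In the bin over 10%, outside the filter, it was -1.27 (-1.83 to -0.75) on 123 and 9 cells. Classical monocyte-gated cells were few in the higher bins, with no steady-state cell at 4 to 6%. Their values were -0.52 (-1.10 to 0.08) at 6 to 10% (3 and 7 cells) and -0.49 (-1.03 to 0.03) over 10% (13 and 11 cells). Ly6C-low monocyte-gated cells, also few, were at -1.19, -1.56 and -3.11 in the bins of 4 to 6%, 6 to 10% and over 10%. Jun in macrophages was -0.17 and 0.04 in the bins under 4%, Egr1 0.34 and 0.14, and Fos -0.73 and -0.32. Within gates and libraries the rank correlation of the summed members with mitochondrial share ran from -0.24 to 0.02 over cells.

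The macrophage value differed between bins of depth. In macrophage-gated cells under 3000 UMIs (103 and 42 cells) the summed members had a log2 ratio of -0.79 (-0.97 to -0.61), against -0.25 both in cells of 3000 to 8000 UMIs (222 and 66) and in deeper ones (634 and 66). Egr1 was -0.76 in the shallow bin, -0.16 in the middle one and 0.20 (0.05 to 0.34) in the deep one, so its higher level at day 7 lay in the cells of 8000 UMIs and above. Egr3 was 0.33 (-2.30 to 2.56), -0.09 (-1.20 to 0.90) and 1.88 (1.45 to 2.30) in these bins, so its higher level lay in the deep cells as well. Among classical monocyte-gated cells the summed members were -0.76 (-1.03 to -0.48) on 12 and 80 shallow cells, -1.01 (-1.08 to -0.94) in the middle bin and -1.15 (-1.19 to -1.12) in the deep bin. Ly6C-low monocyte-gated cells ran from -0.53 in the shallow bin through -0.76 to -1.46 in the deep one. Every monocyte bin of depth was lower at day 7. How cells of different depth and RNA quality came into the 2 libraries was not tested.

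**Figure D4:**
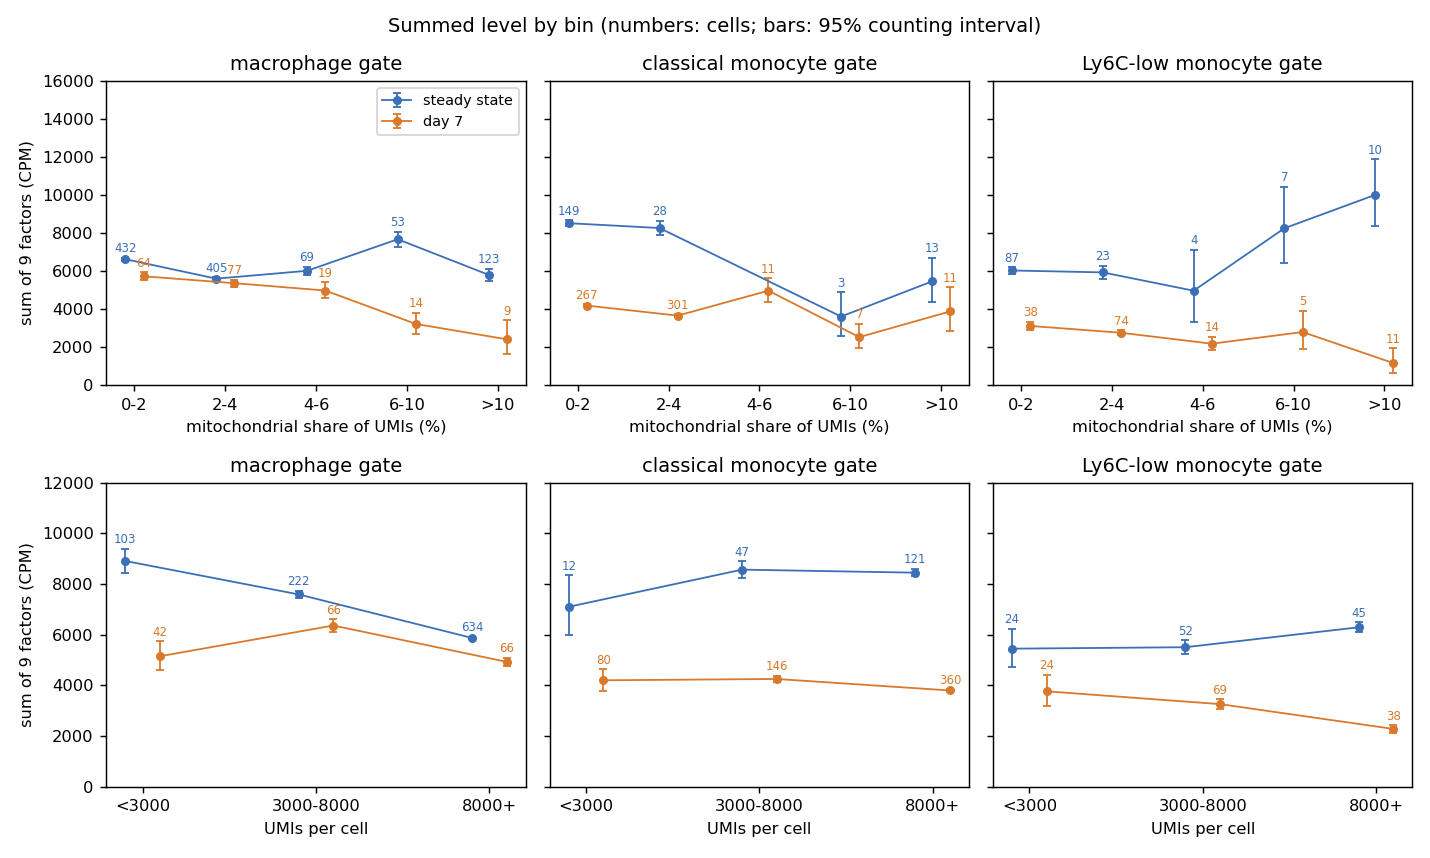
Summed level of the 9 genes (CPM, vertical axis) by bin of mitochondrial share (upper row) and of UMIs per cell (lower row) in the macrophage, classical monocyte and Ly6C-low monocyte gates; blue is steady state, orange day 7, numbers give the cells in each bin and bars 95% counting intervals. The monocyte points of day 7 lie below those of steady state in the 0 to 2% and 2 to 4% bins, and the macrophage points lie close together there.

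Genes around the pathway were read from 7 lists of related genes. The list of feedback and mRNA decay genes holds MAP kinase phosphatases, mRNA decay genes and NF-kB and cytokine feedback genes. It also holds the immediate early response genes Ier2, Ier3 and Ier5. Its median log2 ratio was -0.53 in classical monocytes, with 7 of 17 measured genes lower by 1.5-fold or more and 0 higher. In macrophages the median was 0.19, with 0 of 15 lower by that much and 2 higher. Socs3, an inhibitor of cytokine signalling, was 200 CPM at steady state and 28.6 CPM at day 7 in classical monocytes (log2 ratio -2.81), and Ier5 347 and 135 CPM (-1.36). At the other end were Spred1 (0.55) and Ier3 (0.32). In macrophages Zfp36l1, which binds AU-rich mRNAs for decay, was 315 and 552 CPM (0.81) and Nfkbiz 430 and 670 CPM (0.64), while Ier2 (-0.33) and Nfkbia (-0.32) were lower.

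The kinases and serum response factor genes upstream had medians above 0 in both classes. In classical monocytes 5 of 16 were lower at day 7, near the 37.8% of all genes, and in macrophages 1 of 15, where 39.6% of all genes were. Their median log2 ratio was 0.34 in classical monocytes, with 1 of 16 genes lower by 1.5-fold or more and 4 higher, and 0.25 in macrophages, with 0 of 15 lower and 3 higher. The gene lower in classical monocytes was Map3k8, the Tpl2 kinase of inflammatory signalling, at 67.2 and 25.7 CPM (-1.38), and in macrophages it was higher at 65.0 and 99.3 CPM (0.61). Map2k7, which activates JNK, was higher in both (1.05 and 0.69), and Map2k3 in classical monocytes (0.88). Mapk9 was -0.31 there, and in macrophages Map2k2 was -0.07. The other AP-1 and CREB family genes had medians of 0.52 in macrophages, led by Atf7 (0.94) and Creb1 (0.69) with Jdp2 lowest (-0.53) and Mafk at 0.05, and of 0.09 in classical monocytes, where Atf4 (0.85) and Creb1 (0.66) were highest and Batf (-0.55) and Batf3 (-0.45) lowest. The EGR corepressor Nab1 was 0.46 in macrophages and 0.28 in classical monocytes, and Nab2 0.03 in macrophages.

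Early factors of other families differed between the classes, and early secreted genes had medians below 0 in both. The other early factors had a median of 0.26 in macrophages, with 0 of 12 lower by 1.5-fold or more, and -0.41 in classical monocytes, with 3 of 13. Klf2 was 787 and 274 CPM in classical monocytes (-1.52) and 1325 and 1096 CPM in macrophages (-0.27), while Klf4, needed for monocyte development, was higher in macrophages (0.62) and so was Rel (0.58), with Cebpb at -0.28. In classical monocytes Bhlhe40 (0.84) and Nr4a3 (0.65) were higher and Cebpd lower (-0.81). The early secreted and surface genes had medians of -0.37 in macrophages (5 of 10 lower by 1.5-fold or more) and -0.61 in classical monocytes (4 of 7). In macrophages the growth factor Areg (-2.14) and the chemokine Cxcl1 (-1.52) were lowest, with Tnf (0.26) and Ccl4 (0.20) highest. In classical monocytes Ccl4 (-1.85) and Ccl3 (-1.23) were lowest, Cxcl2 was -0.34 and Ptgs2 0.06. The macrophage interval of Ccl4 (-0.05 to 0.43) spans 0.

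Heat shock genes, which tissue handling can raise, moved in different directions within and between the classes. Their median log2 ratio was 0.10 in macrophages (0 of 10 lower and 1 higher by 1.5-fold or more) and 0.03 in classical monocytes (1 of 7 lower, 0 higher). In macrophages Hspa1b was 62.6 and 141 CPM (1.17) and Hspa1a 0.37, with Hspa8 (-0.26) and Hsp90ab1 (-0.23) lowest. The inducible Hsp70 genes Hspa1a and Hspa1b were lower at day 7 in both monocyte gates and in the dendritic gate. In macrophages, where Fos, Fosb, Junb and Jund were lower too, both had ratios above 0. In classical monocytes, under the 20 CPM limit and so outside the median, Hspa1a was 19.5 and 5.54 CPM (-1.82, -2.57 to -1.07) and Hspa1b 13.2 and 5.18 CPM (-1.35, -2.19 to -0.49). In Ly6C-low monocytes each had 3 UMIs at day 7, at 55.8 and 3.51 CPM for Hspa1a (-3.99, -6.31 to -2.37) and 61.1 and 3.51 CPM for Hspa1b (-4.12, -6.44 to -2.50), and in dendritic-gated cells they were -1.48 (-2.14 to -0.88) and -0.88 (-1.53 to -0.29). The part of handling in the differences of the 9 members was not tested. In classical monocytes Hsp90aa1 was 0.58 and Hspd1 0.13, with Dnajb1 (-0.61) and Hspa8 (-0.50) lowest. Across macrophage-gated cells the summed members had a rank correlation with the heat shock list of 0.19 at steady state and 0.23 at day 7. All of these shares are lists of genes chosen with the results of these libraries known, and the shares over all genes are those printed above for each gate.

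The genes whose levels were most like those of the 9 members differed with the view taken. Across the 12 gate-by-library groups with enough cells (8470 genes compared), the mean level of the members had its highest Pearson correlations with Sertad1 (0.98), Pnrc1 (0.97), Socs3 (0.96), Ube2r2 (0.95), Mtap (0.95), Ppp1r15a (0.94), Thap3 (0.94), Oat (0.94), Tnfrsf12a (0.94) and Irf2bpl (0.93). Across 959 steady-state macrophage-gated cells (7335 genes), those among the highest were Zfp36 (0.64), Nfkbia (0.58), Btg2 (0.57), Dusp1 (0.57), Nfkbiz (0.53), Socs3 (0.50), Ier2 (0.50), Klf6 (0.47) and Ier3 (0.46). Of the genes named, Socs3 is in both sets. Groups share their 2 libraries and cells their library and depth, so these are descriptions with no test.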

How the data were processed

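RNA and antibody tags of sorted synovial cells were measured in 2 libraries, 1 per group. The authors deposited raw UMI counts per gene and cell barcode (integers, 32285 genes and 92 antibodies), made with Cell Ranger 6.1.2 on mm10, per the submitters' processing notes; Seurat 4.4.0 is named there without a role. Kept cells had 500 UMIs and 200 genes or more and no more than 10% mitochondrial UMIs, and Scrublet calls (scanpy 1.11.5) were removed: 6 of 1637 steady-state and 10 of 1210 day 7 cells. Such low rates say that doublets may remain.

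A cell entered the first gate it passed, in the order fibroblast (threshold 40 marker UMIs per 10000), granulocyte (40), macrophage (10), dendritic (20), Ly6C-low monocyte (10) and classical monocyte (10). Thresholds were set on the distribution of marker sums without reading the 9 genes. Origin was host where log2 of CD45.2 over CD45.1 antibody counts, each plus 1, was at least 2, and donor at or below -1. UMIs were summed per gate and library (CPM), with exact Poisson intervals for levels, conditional exact Poisson intervals for ratios and Clopper-Pearson intervals for shares (95%, scipy 1.17.1). Intervals of a difference of 2 ratios use a normal approximation on log counts. UMIs of 1 cell share a library preparation, so intervals and floors cover counting error only. Genes with at least 20 CPM in either library formed the background. No test was possible with 1 library per group.

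The members and gene lists were chosen with earlier results of these data known. Beside all 9 members, the text names the 2 highest and 2 lowest genes of each list per gate and the 10 genes most alike by each of 2 measures. Ribosomal, mitochondrial, Gm and Rik genes were left out of the latter, and some genes that this rule names are not reported here. On Poisson counts simulated from the levels of these libraries, the ratio intervals held the true value for 95.9% of 5899 genes in the macrophage gate. In the classical gate they did so for 95.7% of 5240, and 99% and 95% of 200 genes changed by 2-fold passed 1.5-fold. The simulated counts had no spread between cells, as the Poisson intervals assume. They check the computation only and cannot say how often the intervals hold in real cells. Alternatives changed the mitochondrial limit, depth, doublets, thresholds, classes, weighting and scaling, and 2 more were chosen after seeing the data (main origin only, and a narrower macrophage gate).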

Additional observations from a re-analysis of the deposited data

Results flagged for a closer look

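Some genes had day 7 over steady-state ratios of different sign in different gates, each with an interval clear of 0. The difference between the gates was not tested in any of them, since each group is 1 library. Egr1 was higher in macrophage-gated cells (log2 ratio 0.17) and lower in dendritic-gated cells (-1.79), a difference of 1.956. Its macrophage interval held the median of all genes in that gate, 0.12. The Egr1 difference was 2.02 between host-origin macrophage-gated cells (0.35) and donor-origin dendritic-gated cells (-1.67). Egr3 was higher in macrophage-gated cells (1.43) and lower in dendritic-gated cells (-3.17, on 28 and 1 UMIs), a difference of 4.60. With gate thresholds halved the dendritic ratios were 0.24 for Egr1 and -0.40 for Egr3, and with classes by clusters -0.38 and -1.06.

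Atf3 had different signs once origin was read. It was higher in host-origin macrophage-gated cells (0.21) and lower in donor-origin classical monocytes (-1.46), Ly6C-low monocytes (-1.57) and dendritic-gated cells (-1.03), with differences of 1.66, 1.77 and 1.24. Its interval in host-origin macrophages held the median of all genes there, 0.10.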

How the results depend on the processing

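Across 17 alternative settings, 180 of 187 counts of members stayed within 1.5 times of the count reported. The exceptions were the members lower by 1.5-fold or more in the dendritic gate, 4 with thresholds halved and 5 with classes by clusters (8 reported), and in the macrophage gate, 1 with thresholds halved, with equal weight per cell, with ratios centred on the median gene or with depth bins reweighted, and 2 in cells thinned to 2000 UMIs (0 reported). Egr1 in dendritic-gated cells was 0.24 with thresholds halved (-1.79 reported), on a wider group of 219 and 120 cells, where Egr2 was 0.63 (-1.01 reported) and Egr3 -0.40 (-3.17). In every setting Fos, Fosb, Jun, Junb, Jund and Atf3 were lower in classical and Ly6C-low monocytes. In macrophages Jun ran from -0.23 to 0.08 and Atf3 from -0.15 to 0.23, so both have no fixed direction there, while Egr1 (0.03 to 0.35) and Egr3 (0.93 to 1.58) were higher in every setting. The lowest Egr1 value came with equal weight per cell. Jun in classical monocytes ran from -2.15 to -1.72. The cause of these shifts was not tested. No paired analysis was possible because each group has 1 library.

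Few UMIs limit Egr2 and Egr3 outside macrophages, and 20 donor macrophages at day 7 limit the values by origin. Macrophage-gated cells at day 7 numbered 174 against 959, with a lower median depth. How the tissues were digested, and for how long, is not given in the sources used here, and differences of preparation cannot be told apart from those of the treatment.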

Other observations

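Cells past no marker gate, 92 at steady state and 64 at day 7, had the EGR genes at higher levels at day 7. Egr1 was 347 CPM (311 to 386) and 857 CPM (773 to 947), a log2 ratio of 1.31 (1.09 to 1.52), but 1 of the 21 cells with a UMI held 100 of the 386 day 7 UMIs. Egr2 was 21.5 and 51.0 CPM, with 15 of 23 day 7 UMIs in 1 cell, and Egr3 24.5 and 107 CPM, with 15 of 48 in 1 cell. Fosb was higher as well, at 215 and 415 CPM (0.95, 0.66 to 1.24). In the same cells Jun (-0.78), Fos (-0.75), Atf3 (-0.85) and Jund (-0.49) were lower. These cells are a mixed remainder: mast cell and basophil markers summed to 22.5 CPM at steady state and 380 CPM at day 7, osteoclast markers to 2227 and 42.2 CPM, classical monocyte markers to 1582 and 2761 CPM, and the median cell had 0 UMIs of the first 2 lists in both libraries. A mast and basophil cluster of 8 cells came from day 7 alone. The part of these cells in the ratios was not tested.

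In the fibroblast gate Egr1 was 2025 CPM (1915 to 2139) in 64 steady-state cells and 3204 CPM (2802 to 3649) in 15 day 7 cells, while Fos was 4007 CPM (3852 to 4166) and 2572 CPM (2213 to 2973).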
